A study of Homo sapiens with 20 samples.

Results

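The response of YCCEL1, a gastric cancer cell line that carries Epstein–Barr virus (EBV+) and has the CpG island methylator phenotype (CIMP+), to decitabine (DCB) was examined in 4 of the 20 RNA sequencing libraries of the study. They were chosen by their labels as the 2 libraries of YCCEL1 cells treated with DCB and the 2 of YCCEL1 cells given DMSO, the vehicle, with 72 hours of treatment. All 4 were wild type cells of a single line, grown in EMEM with serum per the labels and in RPMI medium per the study's methods, so their results describe that line and not EBV+ gastric cancer as a whole. Nothing in the labels tells if both libraries of a group had a culture of their own. The p-values therefore measure only the spread between libraries of the same group, pooled over all 20 libraries, which may be technical. The other 16 libraries are the same pair of treatments, with 2 libraries each, in SNU719 (EBV+ and CIMP+), AGS (EBV− and CIMP+), SNU16 and HGC27 (both EBV− and CIMP−). These libraries are used to show where YCCEL1 differed. They also enter the filter on summed values and the spread behind each p-value and standard error (SE). The labels call the last line HGC27 where the text of the study names MKN74, so the identity of that line, which enters each mean of the other 4 lines, is not settled.

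Decitabine is a cytidine analog that is built into replicating DNA and traps the DNA methyltransferases, so that methylation is lost as cells divide. Genes whose promoters are silenced by methylation, among them many that normally act only in germ cells or in another tissue, can then be transcribed. Methylation itself was not measured in these libraries. Genes that fell are given here beside those that rose.

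Values are the normalized counts of the deposited table, which are not corrected for gene length and are compared here only between libraries of the same gene. A gene is called higher or lower where limma, fitted on log2(value + 1) over the 27350 genes with a summed value above 10, gave a Benjamini-Hochberg adjusted p under 0.05. This scale understates the change of genes with low values, and no fold is given for a gene listed at 0 in both libraries of a group. The 4 YCCEL1 libraries held values summing to 8619881 and 8595068 with DCB and to 9220564 and 9321014 with DMSO, with 24633 and 25372 genes above 0 in DCB and 21573 and 21022 in DMSO. Replicates correlated at r = 0.97 in DCB and 0.98 in DMSO across genes, which are not independent replicates. EPCAM, an epithelial adhesion protein, had 6734 and 6606 normalized counts in DCB and 7077 and 7029 in DMSO, and KRT8, a simple epithelial keratin, had 18795 and 20677 in DCB and 21032 and 22203 in DMSO, so the epithelial label held in both groups.

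The calls were lopsided, in part because of the scale used. With DCB, 3989 genes were called higher (14.6% of those tested) and 1895 lower (6.93%), and the remaining 21466 were not called. The genes that rose were mostly near silence in DMSO and rose by a large factor, whereas the genes that fell mostly had high counts and changed by less, with mean values in DCB at a median of 69.4% of DMSO. A log2 fold change above 2 was reached by 2184 genes that rose (7.99%) and by 54 that fell (0.197%). Of those 2184, 1924 averaged under 5 normalized counts in DMSO and 1138 had no count in either DMSO library, while 11 averaged 100 or more. Of the 1895 that fell, 1741 averaged 100 or more in DMSO. The tested genes under 5 and at 100 or more were not counted beside these, so the share called within those ranges is not given. Among the 1740 tested genes that averaged 1000 or more in DMSO, 687 fell and 121 rose. With only the 4 YCCEL1 libraries in the fit (here the YCCEL1-only fit), which leaves 2 residual degrees of freedom, 2261 genes were higher and 1121 lower. In bulk RNA, fewer cells that express a gene and less RNA per cell cannot be told apart. When each library was scaled to the same total instead of being used as deposited, the median log2 fold change of genes averaging 100 or more in DMSO was −0.02, against −0.13 as deposited, and 4470 genes were higher and 1209 lower.

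**Figure D1:**
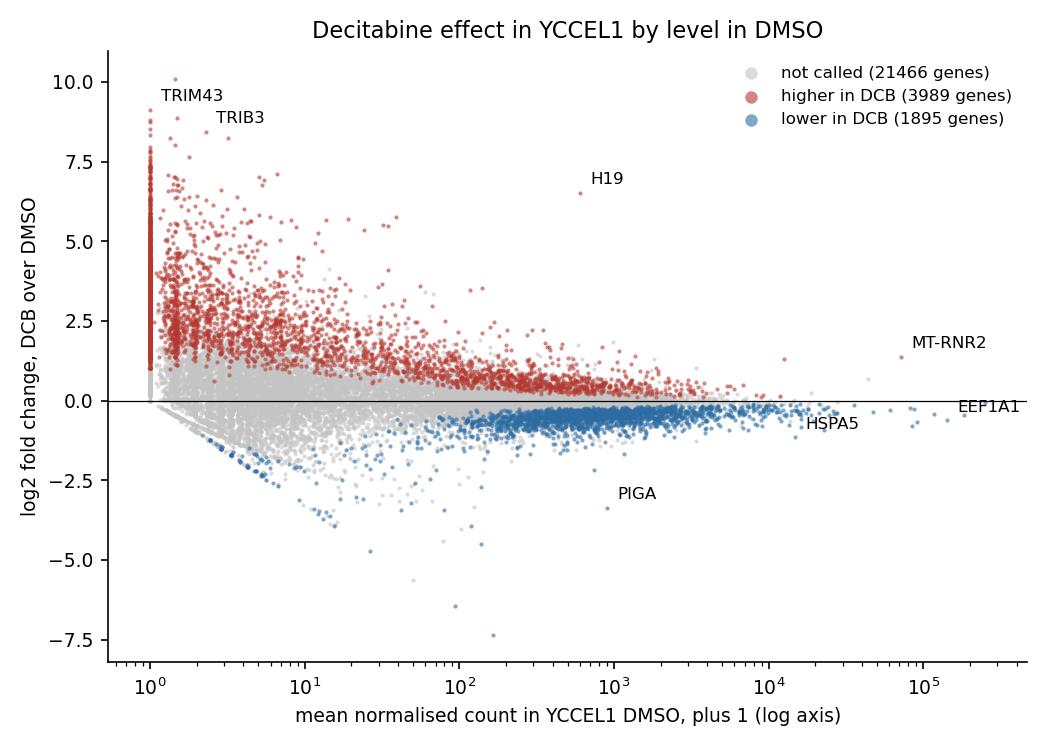
Each point is one of the 27350 genes tested, placed by its mean normalized count in the DMSO libraries of YCCEL1 plus 1 (log axis) and by its log2 fold change, DCB over DMSO, with the 3989 genes higher in red, the 1895 lower in blue and the rest in grey. The red points lie mostly at the left, where DMSO values are at or near 0, and the blue points form a band just under 0 at the right.

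A log2 fold change from 1 to 2 in size was found for 1077 of the genes that rose and 163 of those that fell, and one of at most 1 for 728 and 1678. Protein-coding genes gave 3048 of the rises and 1756 of the falls, out of 17399 tested (17.5% and 10.1%). Long noncoding RNAs gave 744 and 81 of 7114 tested. The long noncoding RNA with the most counts gained was H19, an imprinted transcript of fetal tissues, which is described here because of its value and was not picked by the rule for named genes. H19 had 55360 and 55059 normalized counts in DCB against 524 and 681 in DMSO, a log2 fold change of 6.53 ± 0.39 (SE, n = 2 each, adjusted p = 4.63e-08). Its neighbor IGF2, a fetal growth factor, had 90.6 and 71.4 in DCB against 3.57 and 1.01 in DMSO (adjusted p = 0.000266). Both DCB libraries stood above both DMSO libraries for either gene.

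Germline genes gave some of the clearest rises. Of 45 tested genes of meiosis and the piRNA pathway, which silences transposons in germ cells, 23 rose, 1 fell and 21 were not called. The median log2 fold change was 2.30, against 0.09 over all genes tested. Over the other 4 lines the list had a like median of 2.32. MAEL, a piRNA pathway protein, had 199 and 168 normalized counts in DCB and was listed at 0 in DMSO. DAZL, an RNA-binding protein that germ cells need to enter meiosis, likewise had 152 and 144 in DCB and 0 in both DMSO libraries. DMRTB1, a transcription factor of spermatogonia, had 75 and 81 in DCB and 0 in DMSO. The gene that fell, PLD6, a mitochondrial surface enzyme that works in piRNA production, had 97.1 and 114 in DCB against 217 and 216 in DMSO (log2 fold change −1.03 ± 0.18, adjusted p = 0.000906).

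The promoters of MAEL and DAZL are printed because, of the genes with an entry in the RefSeq promoter table, they are the meiosis and piRNA genes with the highest DCB values among those at 0 in DMSO. Beside them stands TRIM49D1, with the highest DCB value at 0 in DMSO among the genes of the other lists that have such an entry. TRIM43, described below, had higher DCB values but no entry. Also printed is PIGA, the gene with the highest DMSO value among those that fell by more than 2 on the log2 scale. Each is the 250 bases before the start of the gene in RefSeq on GRCh38.p14, 5′ to 3′ on the strand of the gene, with each CpG in capitals.
MAEL, chr1:166975332-166975581, + strand: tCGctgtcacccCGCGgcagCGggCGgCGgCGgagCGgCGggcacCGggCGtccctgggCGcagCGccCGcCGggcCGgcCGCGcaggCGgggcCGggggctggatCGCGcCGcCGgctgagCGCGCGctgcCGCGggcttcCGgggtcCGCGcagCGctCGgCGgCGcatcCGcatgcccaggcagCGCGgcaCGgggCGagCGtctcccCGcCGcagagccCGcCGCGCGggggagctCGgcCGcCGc
DAZL, chr3:16605424-16605673, − strand: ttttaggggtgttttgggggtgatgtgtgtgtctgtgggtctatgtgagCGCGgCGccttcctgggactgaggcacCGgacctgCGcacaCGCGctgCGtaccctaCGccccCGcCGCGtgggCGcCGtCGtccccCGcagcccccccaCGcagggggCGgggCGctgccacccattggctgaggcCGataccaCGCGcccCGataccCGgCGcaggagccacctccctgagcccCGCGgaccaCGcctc
TRIM49D1, chr11:89922246-89922495, − strand: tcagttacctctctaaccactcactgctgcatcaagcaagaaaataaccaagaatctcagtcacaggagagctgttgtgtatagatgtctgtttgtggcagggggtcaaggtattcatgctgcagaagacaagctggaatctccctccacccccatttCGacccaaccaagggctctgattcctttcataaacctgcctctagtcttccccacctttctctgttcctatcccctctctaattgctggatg
PIGA, chrX:15335555-15335804, − strand: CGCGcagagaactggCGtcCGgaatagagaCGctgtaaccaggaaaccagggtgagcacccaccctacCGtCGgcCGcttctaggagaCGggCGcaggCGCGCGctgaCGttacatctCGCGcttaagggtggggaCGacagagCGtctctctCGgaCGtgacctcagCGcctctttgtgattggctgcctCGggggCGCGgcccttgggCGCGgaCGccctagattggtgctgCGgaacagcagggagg
The MAEL stretch holds 51 CpGs and the DAZL stretch 28, whereas that of TRIM49D1 holds 1, although all 3 genes were listed at 0 in DMSO and rose with DCB. The PIGA stretch, from a gene that fell, also holds 28.

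Genes that are normally transcribed for a short time in the cleavage-stage embryo, when the zygotic genome is first switched on, had the highest median of all lists. Of 52 tested, 48 rose and none fell, with a median log2 fold change of 5.47, and 42 of the 48 were listed at 0 in both DMSO libraries. TRIM43, a member of a primate gene family of the early embryo, had 568 and 548 normalized counts in DCB and 0 in both DMSO libraries. TRIM49D1 had 387 and 355 in DCB and 0 in DMSO, and PRAMEF14 had 167 and 156 in DCB and 0 in DMSO. LEUTX, a homeobox factor of the embryo that was singled out after its values were seen, had 96.9 and 98.7 in DCB and 0 in DMSO. The effect in YCCEL1 exceeded the mean effect of the other 4 lines, at an adjusted p under 0.05 for the difference, in 43 of the 52 genes (7.52% of all genes tested), and the median log2 fold change of the list in those lines was 2.20. DUX4, which switches such genes on in the embryo, had 1.30 and 6.09 in DCB and 0 in both DMSO libraries, and its call was lost without the second DCB library (adjusted p = 0.104). TRIM49, PRAMEF and TAF11-like genes are near-identical copies, so reads may be shared out between them, and single members are less certain than the group.

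Among the genes listed at 0 in both DMSO libraries, those with the highest DCB values were TRIM43, TAF11L11, AC126177.5, TRIM49D1, TAF11L12, SLC34A2, TRIM53AP and PNMA5. SLC34A2, a phosphate transporter of lung and other epithelia, had 246 and 252 in DCB. PNMA5, from a family of retrotransposon-derived genes, had 238 and 210.5. For all 8 genes both DCB values were above 200 normalized counts.

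Cancer-testis antigens are expressed in testis and in some tumors, and many of them lie on the X chromosome. They rose in 36 of 51 tested members, and none fell (median log2 fold change 2.73, and 2.24 over the other 4 lines). MAGEB2, a member of the MAGE family, had 55.2 and 61.9 normalized counts in DCB and 0 in both DMSO libraries. SSX2 had 51.5 and 45.9 in DCB and 0 in DMSO, and CTAG2 had 16.2 and 15.1 in DCB and 0 in DMSO. XAGE1B had 150.5 and 185 in DCB and 0 in DMSO. SSX2, CTAG2 and XAGE1B have near-identical copies that may share their reads. In windows from 250 bases before to 50 after the start of each gene, a CpG-rich promoter (at least 55% G and C and at least 0.75 of the CpGs expected from them) was found in 31 of 45 meiosis and piRNA genes (68.9%) but in 2 of 51 cancer-testis antigens (3.92%) and 2 of 51 protein-coding cleavage-stage genes (3.92%), against 56.2% of all protein-coding genes tested.

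**Figure D2:**
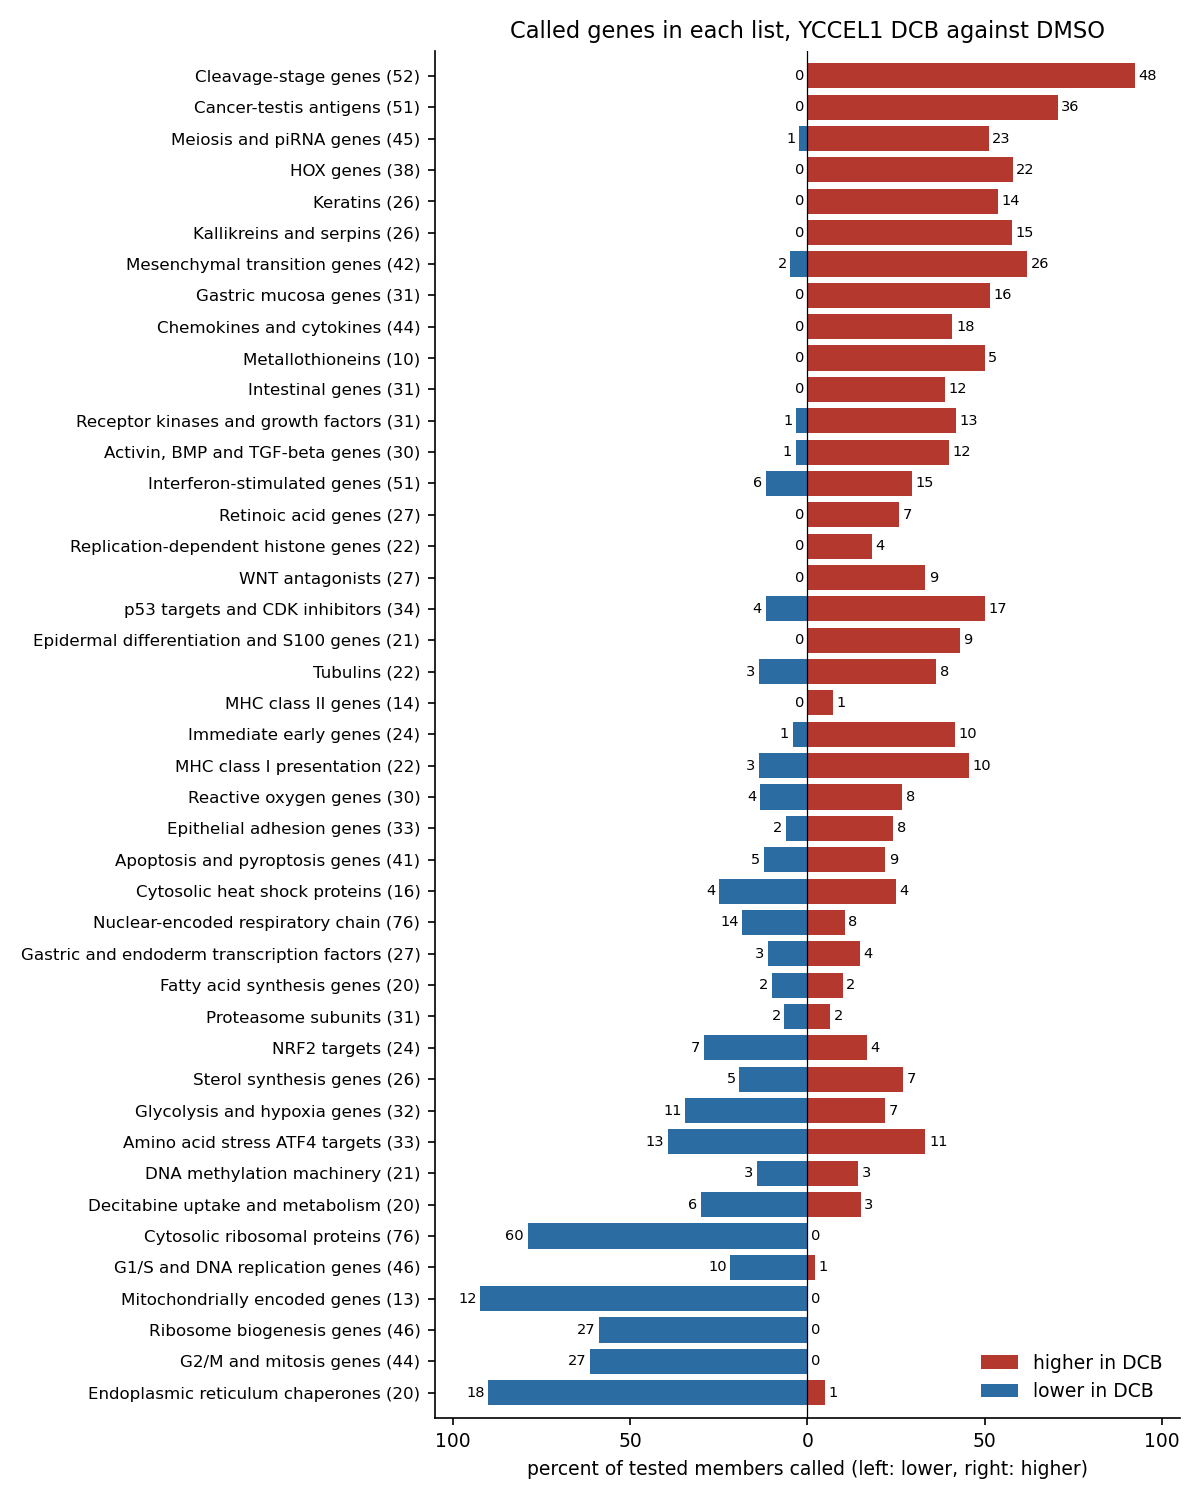
Bars give the percent of tested members of each list that were called higher (right, red) or lower (left, blue) in YCCEL1 with DCB, with counts at the bar ends and the number tested in brackets, and lists are ordered by their median log2 fold change. Germline and embryonic lists stand at the top with 23 to 48 members higher, and the endoplasmic reticulum, mitosis, ribosome and mitochondrial lists stand at the bottom with 12 to 60 members lower, along with the G1/S list with 10.

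HOX genes, the transcription factors that give body segments their identity, rose in 22 of 38 tested members, and none fell (median log2 fold change 2.20). In the YCCEL1-only fit 14 rose. HOXC13 had 59.6 and 53.3 normalized counts in DCB and 0 in both DMSO libraries. HOXA10 had 17.5 and 32.8 in DCB and 0 in DMSO, and HOXB7 had 8.59 and 12.4 in DCB and 0 in DMSO. By cluster, 8 of 9 tested HOXB genes, 6 of 9 HOXC, 4 of 11 HOXA and 4 of 9 HOXD genes rose. No HOX gene that rose had more than 27.4 normalized counts in a DMSO library, and the summed level of the list was 979.5 and 894.8 in DCB against 752.5 and 766 in DMSO. The difference from the other 4 lines was positive in 17 of the 38 genes and negative in 2 (7.52% and 5.54% of all genes tested). The median log2 fold change in those lines was 0.47. HOXC13 had log2 fold changes of 5.84 in YCCEL1 and 0.76 as the mean of the other lines.

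Genes of keratinizing and glandular epithelia rose too. Of 26 keratins tested, 14 rose and none fell (median log2 fold change 1.71, and also 1.71 over the other 4 lines). The filter on summed values left out members of the lists given here, and a near-silent gene can pass it through its rise. With any sum above 0 allowed, 13 of 31 keratins and 14 of 32 kallikreins and serpins rose. The same was true of 7 of 32 epidermal differentiation and S100 genes. KRT7, a keratin of glandular ducts, had 391 and 416 normalized counts in DCB against 29.5 and 31.9 in DMSO, and KRT81, a hair keratin, had 692 and 705 in DCB against 4.39 and 0 in DMSO. Of 26 kallikreins and serpins, which are secreted proteases and their inhibitors, 15 rose and none fell. Their median log2 fold change was 1.58, and 1.68 over the other 4 lines. KLK6 had 928 and 876 in DCB against 4.51 and 6.71 in DMSO, a log2 fold change of 7.11 ± 0.53 (SE, n = 2 each, adjusted p = 4.28e-07), and its relative KLK5 had 151 and 189 in DCB and 0 in both DMSO libraries. Of 21 epidermal differentiation and S100 genes, 9 rose and none fell (5 without the second DMSO library and 4 in the YCCEL1-only fit), led by S100A9, a calcium-binding protein of inflamed epithelia, with 358 and 402 in DCB against 9.70 and 5.96 in DMSO.

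Products of the stomach and intestine rose as well. Of 31 gastric mucosa genes, 16 rose and none fell (median log2 fold change 1.40, and 0.99 over the other 4 lines). In the YCCEL1-only fit 10 rose. REG4, a secreted lectin found in intestinal metaplasia and gastric tumors, had 369.6 and 339 normalized counts in DCB against 10.1 and 11.2 in DMSO (log2 fold change 4.93 ± 0.16, adjusted p = 1.09e-10), and the mean effect in the other 4 lines was 0.19. TFF1, a trefoil peptide of surface mucous cells, had 46.4 and 49.5 in DCB and 0 in both DMSO libraries. PGC, the precursor of a stomach protease, had 56.5 and 64.5 in DCB against 0.702 and 0 in DMSO. Of 31 intestinal genes, 12 rose and none fell, among them LGALS4, a galectin of the gut lining, with 839 and 1000.4 in DCB against 172 and 229 in DMSO. Of 27 transcription factors of stomach and endoderm, 4 were higher (14.8%, against 14.6% of all genes tested) and 3 lower (11.1%, against 6.93%). SOX2, a factor of foregut and stomach progenitors, fell to 339.9 and 292 in DCB, against 601 and 573 in DMSO (log2 fold change −0.89 ± 0.18, adjusted p = 0.00226), while CDX1, an intestinal factor, had 9.11 and 7.10 in DCB and 0 in both DMSO libraries.

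Genes associated with mesenchymal transition rose in 26 of 42 tested members and fell in 2 (median log2 fold change 1.54, and 1.44 over the other 4 lines). The number that rose was 16 without the second DCB library, 15 without the second DMSO library and 13 in the YCCEL1-only fit. LGALS1, a galectin of stromal cells, had 88.5 and 81.3 normalized counts in DCB against 6.22 and 5.25 in DMSO, and COL6A1, a collagen chain, had 90.1 and 89.4 in DCB against 0 and 3.06 in DMSO. TIMP2 and TIMP3, inhibitors of matrix metalloproteinases, had 31.5 and 26.6 (TIMP2) and 38.6 and 41 (TIMP3) in DCB and 0 in DMSO. Of 33 epithelial adhesion genes, 8 rose and 2 fell, but 4 rose without the second DCB or the second DMSO library, 5 without the first DMSO library, and 2 rose and 6 fell in the YCCEL1-only fit. In the full fit 24.2% of this list rose and 6.06% fell, against 14.6% and 6.93% of all genes. The 2 that fell there were DSG2, a desmosome cadherin, and the tight junction gene CLDN12. DSG2 had 802 and 796 in DCB against 1332 and 1237 in DMSO. CLDN12 had 642 and 641 in DCB against 1327 and 1306 in DMSO. Beside these, 3 of 6 defining fibroblast markers rose (COL1A1, COL3A1 and DCN), with a summed level of 85.3 and 86.7 in DCB against 7.33 and 27.8 in DMSO, where DCN was at 0, and LUM and PDGFRB were at 0 in DMSO and at most 6.25 in DCB. None of 6 leukocyte and 3 endothelial markers was called, and the endothelial markers summed to at most 7.07. The leukocyte sum of 71890 and 69400 in DCB against 44230 and 43060 in DMSO was nearly all LYZ, which gland cells of the stomach also make (71538 and 69028 in DCB, 44137 and 42903 in DMSO, adjusted p = 0.271, or 0.000438 with the 8 libraries of the EBV+ lines alone in the fit). CD3E, of T cells, was at 0 in both DMSO libraries and PTPRC, of all leukocytes, had at most 3.02 normalized counts. The part of other cell types in these results was not tested. The COL6A1 call was lost in the YCCEL1-only fit (adjusted p = 0.0664), and the calls of COL1A1, COL3A1 and DCN were lost without 1 or more of the libraries (largest adjusted p = 0.417, 0.0906 and 0.104).

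Secreted immune mediators rose in part, and interferon-stimulated genes moved both ways. Of 44 chemokines and cytokines tested, 18 rose and none fell. IL32, an inflammatory cytokine, had the smallest adjusted p of the protein-coding genes that rose and were not at 0 in both DMSO libraries, with 261 and 254 normalized counts in DCB against 2.53 and 3.53 in DMSO (log2 fold change 6.01 ± 0.13, adjusted p = 9.61e-13). TNFSF9, a ligand that costimulates T cells, had 53 and 62.9 in DCB and 0 in both DMSO libraries. CXCL8, a neutrophil attractant named here after its values were seen, had 1219 and 1144 in DCB against 369 and 365 in DMSO. Of 51 interferon-stimulated genes, 15 rose and 6 fell, with 2 lower without the first DMSO library and 7 higher and 3 lower in the YCCEL1-only fit. In the full fit 29.4% of the 51 rose and 11.8% fell, against 14.6% and 6.93% of all genes. IFI6 had 114 and 126 in DCB against 5.63 and 2.11 in DMSO. IFITM2, a restriction factor of virus entry with near-identical relatives, had 390.5 and 211 in DCB against 4.17 and 4 in DMSO. Some sensors of double-stranded RNA were among those that fell. EIF2AK2, the kinase PKR, fell to 174 and 177 in DCB, against 283 and 424 in DMSO (log2 fold change −0.97 ± 0.17, adjusted p = 0.000867, or 0.131 in the YCCEL1-only fit). OAS1, which activates RNase L, had 2332 and 2346 in DCB against 4319.5 and 4192 in DMSO (adjusted p = 0.0163), a call that was lost when any 1 of the 4 libraries was left out (adjusted p 0.0671 to 0.0814).

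Of 22 genes of MHC class I presentation, 10 rose (4 in the YCCEL1-only fit) and 3 fell, the 3 being chaperones of the endoplasmic reticulum (CALR, CANX and PDIA3). PSME1, a proteasome activator subunit, had 1036 and 1091 normalized counts in DCB against 769 and 706 in DMSO (log2 fold change 0.53). B2M, the light chain of class I molecules, had 3576 and 3427 in DCB against 2937 and 2484 in DMSO (log2 fold change 0.37, adjusted p = 0.000547, or 0.156 in the YCCEL1-only fit). Of 14 MHC class II genes 1 rose (7.14%, against 14.6% of all genes). It was the invariant chain CD74, with 310.2 and 284 in DCB against 50.5 and 54.4 in DMSO.

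Of 27 WNT antagonists, 9 rose (33.3%, against 14.6% of all genes) and none fell. NOTUM, an enzyme that inactivates WNT ligands, had 133 and 189 normalized counts in DCB and 0 in both DMSO libraries, and DKK3 had 183 and 141 in DCB against 1.81 and 2.04 in DMSO. Of 30 activin, BMP and TGF-beta genes, 12 rose (7 in the YCCEL1-only fit) and 1 fell. BMP7 had 128 and 184 in DCB against 2.51 and 4.23 in DMSO, and ID1, a target of BMP signaling, had 3642 and 3689.5 in DCB against 1962 and 1899 in DMSO. The gene that fell was the ligand BMP2, with 178 and 172 in DCB against 292 and 298 in DMSO and a mean log2 fold change of 1.00 in the other lines. Of 31 receptor kinases, growth factors and IGF-binding proteins, 13 rose and 1 fell. IGFBP4, which binds insulin-like growth factors, had 191 and 165 in DCB against 0.882 and 0 in DMSO, and AREG, a ligand of the EGF receptor, had 80.6 and 48.1 in DCB and 0 in both DMSO libraries. MET, the receptor of hepatocyte growth factor, fell to 1770.1 and 1634 in DCB, against 3157 and 2898 in DMSO (log2 fold change −0.83 ± 0.093, adjusted p = 2.01e-05).

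Of 24 immediate early genes, 10 rose and 1 fell, and 6 rose without the second DCB library or the first DMSO library and 5 in the YCCEL1-only fit. FOS, a subunit of AP-1, had 1227 and 1276 normalized counts in DCB against 363 and 353 in DMSO, and EGR1 had 980.0 and 1014 in DCB against 647 and 595 in DMSO. MYC, the member that fell, had 1255 and 1098 in DCB against 1745 and 1554 in DMSO (log2 fold change −0.49 ± 0.089, adjusted p = 0.00125, or 0.109 in the YCCEL1-only fit). Of 27 retinoic acid genes, 7 rose (25.9%, against 14.6% of all genes) and none fell. Among those that rose, DHRS9, an enzyme of retinol oxidation, had 29.3 and 66.4 in DCB and 0 in DMSO. Of 10 metallothioneins, 5 rose (3 in the YCCEL1-only fit), led by MT2A, a zinc-binding protein, with 215 and 211 in DCB against 89.6 and 86.6 in DMSO.

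Of 34 p53 targets and CDK inhibitors, 17 rose (9 in the YCCEL1-only fit) and 4 fell. CDKN2B, an inhibitor of CDK4 and CDK6, had 48.5 and 42.9 normalized counts in DCB and 0 in both DMSO libraries. CDKN1A, the p53-induced inhibitor p21, had 3147 and 2998 in DCB against 1516 and 1755 in DMSO (log2 fold change 0.91 ± 0.11, adjusted p = 2.88e-05). TP53I3, a p53-induced oxidoreductase, had 466 and 537 in DCB against 212 and 189 in DMSO. Other p53 targets moved the other way, and TNFRSF10B, a death receptor, fell to 2254 and 2017 in DCB, against 3054 and 3303 in DMSO, and the stress-induced SESN2 to 975 and 905 in DCB, against 1474 and 1455 in DMSO.

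Mitotic genes fell. Of 44 genes of G2, M phase and mitosis, 27 fell and none rose, with a median log2 fold change of −0.55, and in 34 of the 44 both DCB libraries lay below both DMSO libraries (21.2% of all genes tested). In the YCCEL1-only fit 13 fell. PLK1, a kinase that drives mitotic entry, had 92.5 and 73.4 in DCB against 199.9 and 272 in DMSO (log2 fold change −1.49 ± 0.14, adjusted p = 3.67e-06, or 0.0645 in the YCCEL1-only fit). AURKA, another mitotic kinase, had 219 and 205 in DCB against 374 and 360.2 in DMSO. PTTG1, the securin that restrains the separation of sister chromatids, had 134 and 139 in DCB against 269 and 242 in DMSO. The effect was below the mean of the other lines in 22 of the 44 genes (5.54% of all genes tested), where the list had a median log2 fold change of 0.04. Of 46 genes of G1/S and DNA replication, 10 fell (6 in the YCCEL1-only fit) and 1 rose. Among those that fell, CDC6, a replication licensing factor, had 426 and 408 in DCB against 633 and 737 in DMSO. The E2F-type core GCGGGAA, sought on both strands after these values were seen, was in 45.7% of the promoter windows of the G1/S list and in 4.55% of those of the mitosis list, against 9.39% of all protein-coding genes tested.

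The translation machinery fell as a group, by little per gene. Of 76 cytosolic ribosomal proteins tested, 60 fell and none rose, with a median log2 fold change of −0.24. In 74 of the 76 both DCB libraries lay below both DMSO libraries, and the summed level was 693600 and 702300 in DCB against 821200 and 843200 in DMSO. RPSA had 7994 and 7965 in DCB against 11590 and 11802 in DMSO, and RPL10 had 9254 and 9338 in DCB against 12801 and 13126 in DMSO. With equal library totals 41 fell and 2 rose, in the YCCEL1-only fit 31 fell, and 25 fell when the variance was not modeled as a trend on the level. This fall was smaller than in the other lines, where the median was −0.41. The difference was positive in 48 of the 76 genes and negative in none (7.52% and 5.54% of all genes tested). EEF1A1, the elongation factor that brings aminoacyl-tRNA to the ribosome, had the smallest adjusted p of all protein-coding genes that fell, with 93406 and 91428 in DCB against 141070 and 142350 in DMSO (log2 fold change −0.62 ± 0.013, adjusted p = 9.61e-13). In the YCCEL1-only fit its adjusted p was 0.0648, and both EEF1A1 and ribosomal proteins have many processed pseudogenes that could take some of their reads.

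Ribosome assembly genes fell too. Of 46 ribosome biogenesis genes, 27 fell and none rose (median log2 fold change −0.39), and 15 fell in the YCCEL1-only fit. NPM1, a nucleolar chaperone of ribosome assembly, had 9057 and 9025 normalized counts in DCB against 16277 and 15898 in DMSO, a log2 fold change of −0.83 ± 0.029 (SE, n = 2 each, adjusted p = 2.06e-10). DDX21, a nucleolar RNA helicase, had 1136 and 1084 in DCB against 1823 and 1756 in DMSO, with a mean log2 fold change of 0.12 in the other lines. The E-box CACGTG, sought likewise, was in 19 of 46 promoter windows of this list (41.3%) against 9.36% of all protein-coding genes tested, and also in 20 of 38 of the HOX genes (52.6%), which moved the other way. HNRNPA1, a splicing regulator, and the nuclear noncoding RNA NEAT1, which were among the falling genes with the largest normalized counts, are not of this list. HNRNPA1 had 10446 and 11031 in DCB against 16216 and 16173 in DMSO, and NEAT1 had 12143 and 11510 in DCB against 22725 and 22534 in DMSO.

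Chaperones of the endoplasmic reticulum, which fold secreted and membrane proteins and are induced by the unfolded protein response, fell together in YCCEL1. Of 20 tested, 18 fell, DERL3 rose and EDEM1 was not called, and the median log2 fold change was −0.64. The summed level was 56420 and 55910 in DCB against 86830 and 87400 in DMSO. HSPA5 (BiP), the main chaperone of the compartment, had 6604 and 6682 normalized counts in DCB against 14757 and 14754 in DMSO, a log2 fold change of −1.15 ± 0.027 (SE, n = 2 each, adjusted p = 2.57e-12). HYOU1, which exchanges its nucleotide, had 5226 and 5335 in DCB against 8919.6 and 9278 in DMSO, and CALR, a lectin chaperone of glycoproteins, had 5279 and 5384 in DCB against 7871 and 7986 in DMSO. PDIA4, a disulfide isomerase, had 4045 and 4071 in DCB against 5884 and 5799 in DMSO. In each of these 4 genes the replicates differed by far less than the groups.

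In the other lines the effect on most of these genes was positive. The median log2 fold change of the list over the other 4 lines was 0.44, and the YCCEL1 effect was lower, at an adjusted p under 0.05 for the difference, in 17 of the 20 genes (5.54% of all genes tested) and higher in none. For HSPA5 the mean effect elsewhere was 0.45 and the difference −1.61 ± 0.030 (adjusted p = 3.05e-13). In SNU719, the other EBV+ line, the HSPA5 log2 fold change was 0.34, and the difference, YCCEL1 minus SNU719, was −1.49 ± 0.037 (log2 scale, adjusted p = 1.89e-11). Over all genes tested, the difference from SNU719 was positive in 4.3% and negative in 3.63%. HSP90B1, the HSP90 of this compartment, had log2 fold changes of −0.42 in YCCEL1 and 0.57 elsewhere. Further genes were picked after these values were seen, HERPUD1 and XBP1 from the same list of 20 and CREB3L2 and SEC24D from outside it. HERPUD1, which helps clear misfolded proteins, had 705 and 678 in DCB against 1477 and 1659.8 in DMSO, and CREB3L2, a transcription factor that expands the secretory pathway, had 254 and 214 in DCB against 644 and 653 in DMSO. SEC24D, a coat protein of vesicles leaving the compartment, had 88.2 and 82.2 in DCB against 351 and 218 in DMSO, a call that was lost in the YCCEL1-only fit (adjusted p = 0.074). XBP1, a transcription factor of the unfolded protein response, had 1903 and 1802 in DCB against 2537 and 2398 in DMSO (log2 fold change −0.41, and −0.28 elsewhere).

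The promoter of HSPA5 is printed because this gene had the smallest adjusted p of the list and its promoter carries the ER stress element, in which CCAAT, bound by NF-Y, is followed after 9 bases of any kind by CCACG, bound by ATF6. The 250 bases before its start in RefSeq on GRCh38.p14 are given 5′ to 3′ on the strand of the gene, with the matching stretch in capitals.
HSPA5, chr9:125241344-125241593, − strand: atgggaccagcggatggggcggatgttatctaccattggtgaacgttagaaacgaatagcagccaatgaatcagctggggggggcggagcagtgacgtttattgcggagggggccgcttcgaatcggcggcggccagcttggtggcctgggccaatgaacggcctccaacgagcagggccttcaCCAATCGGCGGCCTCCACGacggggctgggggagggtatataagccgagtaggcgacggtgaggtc
The element, sought on both strands without mismatch in windows from 250 bases before to 50 after the start, was found in 7 of the 20 genes of the list (35.0%) against 0.121% of all protein-coding genes tested. The 7 were HSPA5, HSP90B1, CALR, CANX, CRELD2, PDIA6 and XBP1, all of which fell. As 18 of the 20 fell, most members without the element, such as HYOU1, fell too. Over all protein-coding genes tested, 21 carried the element. Of these 10 fell, 8 were not called, 2 rose by more than 2 on the log2 scale and 1 rose by less. The motif was chosen after the fall of the list had been seen, and all 20 promoters of the list were CpG-rich.

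Of 16 cytosolic and other heat shock proteins, 4 rose and 4 fell (25% each, against 14.6% and 6.93% of all genes). In the YCCEL1-only fit 2 fell. HSPB1, a small heat shock protein, had 107 and 139.6 normalized counts in DCB against 1.32 and 0 in DMSO, and HSPA1A, the inducible HSP70 with a near-identical copy, had 1141 and 998 in DCB against 439.8 and 430.4 in DMSO. HSPD1, a chaperone of the mitochondrial matrix, fell to 7777 and 7835 in DCB, against 13417 and 13421 in DMSO, and HSP90AB1 to 11929 and 11722 in DCB, against 15531 and 15915 in DMSO. HSP90AA1 had log2 fold changes of −0.26 in YCCEL1 and 0.59 as the mean of the other lines.

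**Figure D3:**
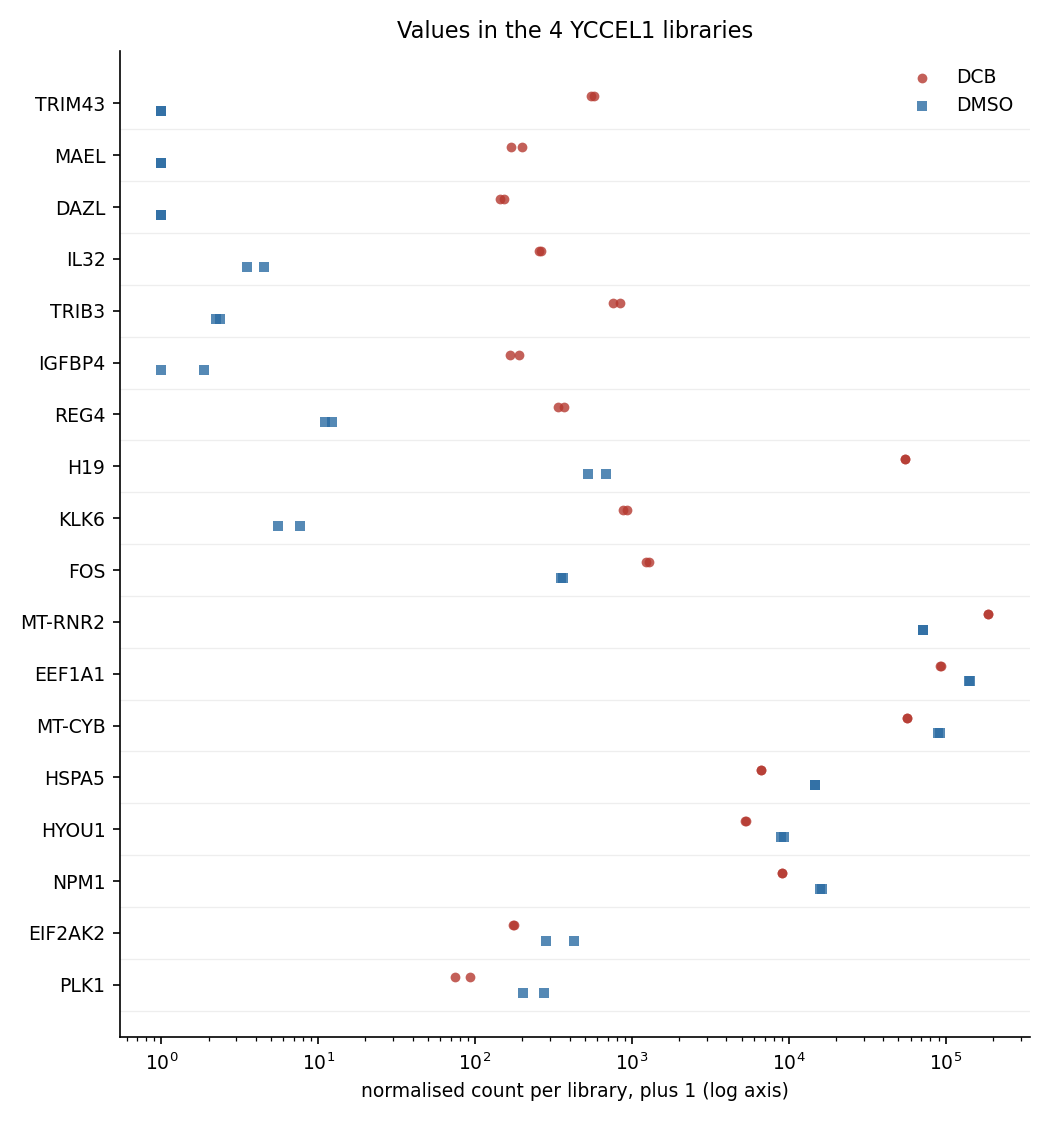
Points give the normalized count plus 1 (log axis) of 18 genes in each of the 4 YCCEL1 libraries, with the DCB libraries as red circles above the DMSO libraries as blue squares. The groups do not overlap for any gene shown, TRIM43, MAEL and DAZL are at 0 in both DMSO libraries, and the 7 genes from EEF1A1 down to PLK1 lie lower in DCB.

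Mitochondrial transcripts moved in opposite directions by class. The 2 mitochondrial ribosomal RNAs had the largest normalized counts of all genes with a log2 fold change from 0.5 to 2. MT-RNR2 had 187170 and 184970 in DCB against 71638 and 71944 in DMSO (log2 fold change 1.37 ± 0.017, adjusted p = 2.65e-15), and MT-RNR1 had 31115 and 31089 in DCB against 12494 and 12544 in DMSO (log2 fold change 1.31). Of the 13 messenger RNAs of the mitochondrial genome, which encode subunits of the respiratory chain, 12 fell, and the remaining one, MT-ND6, the only messenger of the light strand, had 449 and 471 in DCB and 452 and 414 in DMSO and was not called. In the YCCEL1-only fit 4 of the 13 fell, and 7 fell without a variance trend. MT-CYB had 57065 and 56326 in DCB against 89749 and 92072 in DMSO, and MT-ND2 had 48543 and 49091 in DCB against 82685 and 85874 in DMSO. The mitochondrial share of the library was 12.17% and 12.11% in DCB against 12.23% and 12.3% in DMSO. The mean effects in the other lines were 0.25 for MT-RNR2 and −0.14 for MT-CYB. In SNU719 MT-RNR2 had a log2 fold change of 0.98. By their labels these libraries were made from poly(A) RNA, which holds ribosomal RNA only in part, while the study's methods give a different kit. Nuclear copies of mitochondrial genes may take some of the reads. Nuclear genes of the respiratory chain were higher in 10.5% and lower in 18.4%, against 14.6% and 6.93% of all genes. Of 76 nuclear genes of the respiratory chain, 8 rose and 14 fell (21 and 9 with equal library totals, 4 and 9 in the YCCEL1-only fit), and 5 rose without the second DMSO library.

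Amino acid stress genes, many of which are targets of ATF4, moved both ways, with 11 of 33 higher and 13 lower (7 lower in the YCCEL1-only fit). TRIB3, a pseudokinase that restrains the pathway, had 834 and 757 normalized counts in DCB against 1.22 and 1.37 in DMSO (log2 fold change 8.44 ± 0.29, adjusted p = 2.35e-10). CBS, of the transsulfuration pathway, had 183 and 161 in DCB against 0.625 and 0 in DMSO, and PHGDH, the first enzyme of serine synthesis, had 41.4 and 23.1 in DCB against 0 and 0.583 in DMSO. ASNS, the asparagine synthetase, had 1429 and 1397 in DCB against 398 and 510.4 in DMSO, with a mean log2 fold change of −1.13 in the other lines. DDIT4, an inhibitor of mTORC1, had 1374 and 1488 in DCB against 657 and 670.3 in DMSO and a mean of −1.45 elsewhere. Among those that fell, the mitochondrial folate enzyme MTHFD2 had 2827 and 2723 in DCB against 4972 and 4745 in DMSO, and SLC3A2, a subunit of amino acid transporters, had 4862 and 4789 in DCB against 8003 and 8207 in DMSO. The difference from the other lines was positive in 22 of the 33 genes and negative in 1 (7.52% and 5.54% of all genes tested). The median log2 fold changes were −0.18 in YCCEL1 and −0.63 in the others. ATF4 itself had 7794 and 7742 in DCB against 8929.7 and 8668 in DMSO, a log2 fold change of −0.18 whose call was lost with equal library totals (adjusted p = 0.144).

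**Figure D4:**
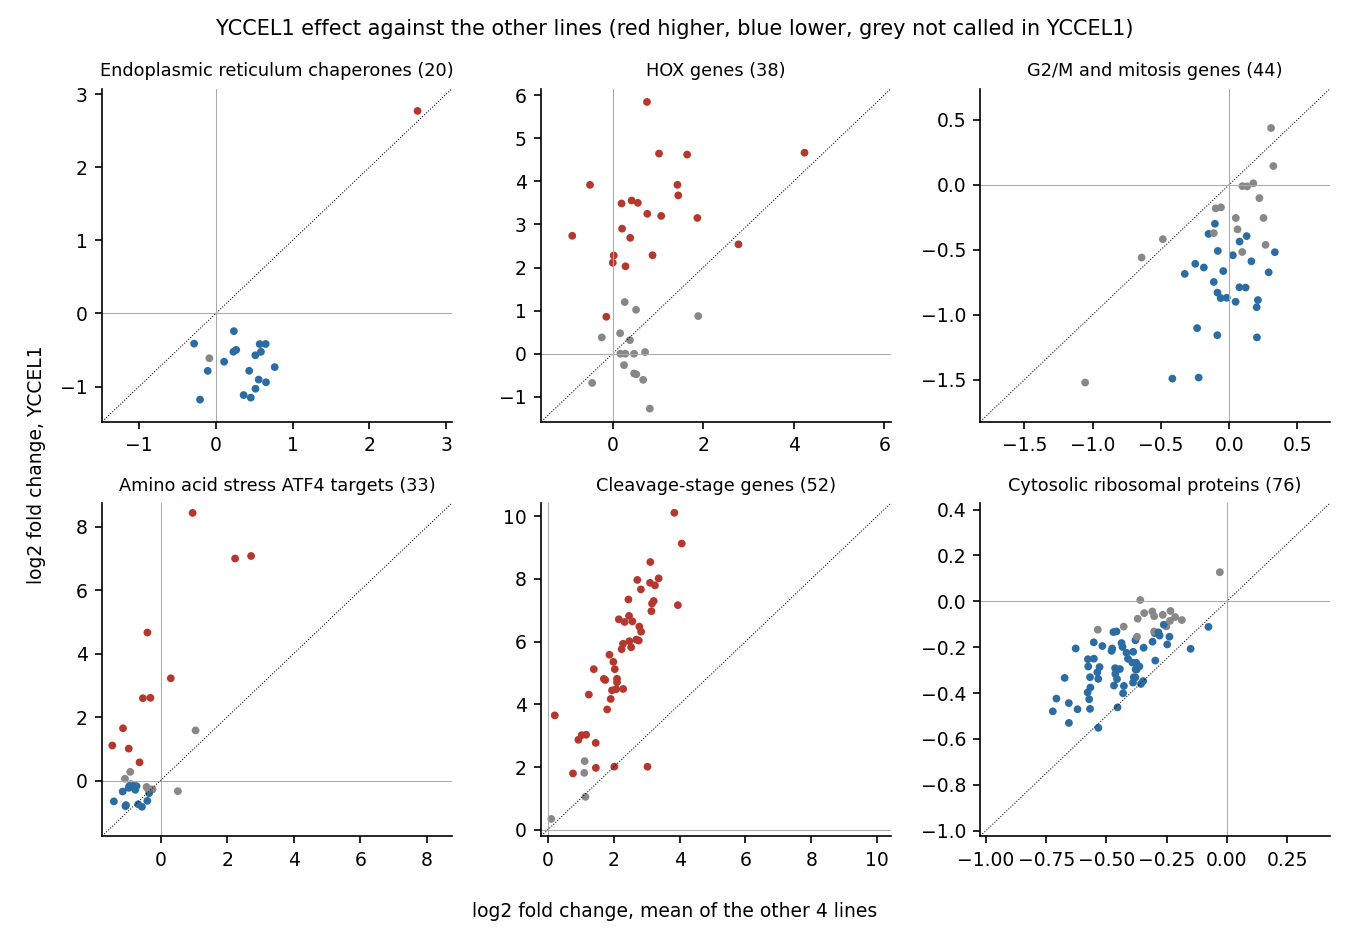
Each point is a gene of the list named above its panel, placed by the mean log2 fold change of the other 4 lines (x axis) and by that of YCCEL1 (y axis), with red for higher, blue for lower and grey for not called in YCCEL1 and a dotted line where both are equal. The endoplasmic reticulum chaperones other than DERL3 lie below the line and mostly at positive x, HOX and cleavage-stage genes lie mostly above it, and ribosomal proteins lie above it at negative values of both.

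Of 32 genes of glycolysis and hypoxia, 7 rose and 11 fell (21.9% and 34.4%, against 14.6% and 6.93% of all genes). In the YCCEL1-only fit 4 rose and 6 fell. GPI, the second enzyme of glycolysis, had 3818 and 3782 normalized counts in DCB against 6785 and 6892 in DMSO (log2 fold change −0.85 ± 0.041, adjusted p = 4.99e-09), and GAPDH had 21230 and 20806 in DCB against 27169 and 28189 in DMSO. The glucose transporter SLC2A3 rose to 191 and 232 in DCB, against 4.35 and 2.44 in DMSO. Of 26 sterol synthesis genes, 7 rose and 5 fell, but 3 and 2 without the second DCB library, 2 and 3 without the first DMSO library and 3 and 2 in the YCCEL1-only fit, and 2 fell without the second DMSO library. In the full fit 26.9% of the sterol synthesis genes rose and 19.2% fell. CYP51A1, which fell, had 387 and 426 in DCB against 658 and 652 in DMSO. SCD, the fatty acid desaturase, fell to 3223 and 3122 in DCB, against 4707 and 4570.4 in DMSO. Of 30 genes that make or remove reactive oxygen species, 8 rose (5 without the second DCB library) and 4 fell, and GPX1, a glutathione peroxidase, had 1259.8 and 1227 in DCB against 679.8 and 683 in DMSO (log2 fold change 0.87, adjusted p = 1.99e-07). In the full fit 26.7% of the reactive oxygen genes rose and 13.3% fell. Of 24 NRF2 targets, 4 rose and 7 fell (16.7% and 29.2%, against 14.6% and 6.93% of all genes), or 2 and 4 in the YCCEL1-only fit. NQO1, a quinone reductase, had 1940.4 and 2007 in DCB against 1288 and 1290.2 in DMSO. PGD, of the pentose phosphate pathway, had 975 and 1052 in DCB against 1481 and 1525 in DMSO.

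Shares called in further lists are set against the 14.6% higher and 6.93% lower of all genes. They were 22% and 12.2% for apoptosis and pyroptosis genes and 36.4% and 13.6% for tubulins. Of the lists described above, MHC class I presentation had 45.5% and 13.6%, and p53 targets and CDK inhibitors 50% and 11.8%. Amino acid stress genes had 33.3% and 39.4%, and G1/S genes 2.17% and 21.7%. The activin, BMP and TGF-beta list had 40% and 3.33%, receptor kinases and growth factors 41.9% and 3.23%, and immediate early genes 41.7% and 4.17%. Of 41 genes of apoptosis and pyroptosis, 9 rose and 5 fell, but 5 rose without either DMSO library, 2 or 3 fell without any 1 library, and 3 rose and none fell in the YCCEL1-only fit. PYCARD, the adaptor of inflammasomes, had 53.9 and 33 normalized counts in DCB and 16.7 and 12.4 in DMSO, and CYCS, which encodes cytochrome c, had 2922 and 3276 in DCB and 3917 and 4253 in DMSO. Of 22 tubulins, 8 rose (5 without the second DCB library and in the YCCEL1-only fit) and 3 fell, TUBB having 3149.7 and 3273 in DCB against 4031 and 4271 in DMSO. Of 22 replication-dependent histone genes, whose RNA mostly lacks poly(A) tails, 4 rose (18.2%, near the 14.6% of all genes), and 2 rose without the second DCB or the first DMSO library. Of 31 proteasome subunits, 2 rose and 2 fell (6.45% each, at or below the shares of all genes), or 7 and 0 with equal library totals.

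Of 21 genes of DNA methylation, 3 rose and 3 fell (14.3% each, against 14.6% and 6.93% of all genes), and 5 fell without the second DMSO library. DNMT1, the maintenance methyltransferase, had 882 and 1411 normalized counts in DCB and 1257 and 927 in DMSO, with overlapping groups, and was not called. DNMT3B, a de novo methyltransferase, had 231 and 221 in DCB against 101 and 108 in DMSO (log2 fold change 1.10 ± 0.18, adjusted p = 0.000557). DPPA3, which keeps methylation off the egg genome and hinders UHRF1, had 54.1 and 49.5 in DCB and 0 in both DMSO libraries. Genes of decitabine uptake and metabolism were higher in 15% and lower in 30%, against 14.6% and 6.93% of all genes. Of 20 genes of decitabine uptake and metabolism, 3 rose (1 without the first DCB or the second DMSO library) and 6 fell, among them the deaminase DCTD, with 428 and 403 in DCB against 639.9 and 691 in DMSO, and thymidylate synthase (TYMS), with 587 and 567 in DCB against 776 and 827 in DMSO. DCK, the kinase that activates decitabine, had 161 and 153 in DCB against 241 and 259 in DMSO (adjusted p = 0.0406), a call that was lost without any 1 of the libraries (adjusted p 0.104 to 0.171).

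Large falls were few, and genes near silence in DMSO had no room for one. The genes listed at 0 in both DCB libraries with the highest DMSO values were AC138811.2 (134 and 195), PSMC1P1 (128 and 57.6), AD000671.2 (29.1 and 21.8), AC009879.3 (17.5 and 11.5) and EIF2S2P4 (21.2 and 5.96), which include pseudogenes and unnamed loci whose reads may belong to a related gene. AD000671.2 and AC009879.3 lost their calls when any 1 of the 4 libraries was left out (adjusted p 0.0535 to 0.0754 and 0.0549 to 0.0955). PIGA, the X-linked enzyme that starts GPI anchor synthesis and whose promoter is printed above, had 90.9 and 76.9 in DCB against 659 and 1143 in DMSO (log2 fold change −3.36 ± 1.08, adjusted p = 0.0404), and its call was also lost without any 1 library (0.0899 to 0.19). HDGFL2, a chromatin reader of the HDGF family that was named after its values were seen, had 151 and 169.7 in DCB against 919.6 and 565 in DMSO (adjusted p = 0.000653, or 0.0549 in the YCCEL1-only fit).

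Among rises with a log2 fold change from 0.5 to 2, those with the largest normalized counts after the mitochondrial RNAs included CTSB, a lysosomal protease, with 5642 and 5485 in DCB against 3808 and 3832 in DMSO, and AHNAK, a large scaffold protein, with 3889 and 3904 in DCB against 2670.4 and 2778 in DMSO. LSR, a tricellular junction protein, had 3909 and 3925 in DCB against 2434 and 2676 in DMSO. IFITM3, LRP1 and ITGB4 were in the same class (adjusted p = 0.0138, 0.0224 and 0.00977) but lost their calls without 1 or more of the libraries, the largest adjusted p being 0.114, 0.151 and 0.0939. Other genes with small adjusted p among the rises were TXNIP, which binds thioredoxin, with 108 and 103 in DCB against 23.8 and 23.8 in DMSO, and IFI30, a lysosomal thiol reductase, with 278 and 316 in DCB against 33.1 and 38.1 in DMSO. PROCR, the receptor of protein C, had 218 and 256 in DCB against 13.2 and 18 in DMSO, and SUSD2 had 1503 and 1549 in DCB against 30.2 and 36.9 in DMSO.

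Of 20 genes that the study discusses, a list that it drew from these and related samples and that is therefore not independent evidence, 7 rose in YCCEL1 and none fell. CDKN1C, a CDK inhibitor, had 34.3 and 37.2 normalized counts in DCB against 2.23 and 0 in DMSO, and NKD1, a WNT antagonist, had 54.1 and 215 in DCB against 0.745 and 0.419 in DMSO. MSX1, a homeobox factor, had 45.6 and 50.1 in DCB and 0 in both DMSO libraries, and INHBB, an activin subunit, had 49.7 and 41 in DCB and 0 in DMSO. RASSF1, a tumor suppressor, had 224 and 220.1 in DCB and 245 and 262 in DMSO, both DCB values being lower, and was not called (log2 fold change −0.19 ± 0.12, adjusted p = 0.313). RARB, a retinoic acid receptor, had 1.02 and 0 in DCB and 0 in both DMSO libraries, so that a change was not detectable at this depth, and RARA had 233 and 243 in DCB against 189 and 164 in DMSO (adjusted p = 0.0538, and 0.0195 with equal library totals). SFRP1 was listed at 0 in all 4 libraries. In the YCCEL1-only fit 3 of the 20 rose and 1 fell. There the calls of CDKN1C (adjusted p = 0.0746), NKD1 (0.0567), DDX4 (0.0573) and CHFR (0.106) were lost, and INPP4B, a lipid phosphatase, was called lower (0.0455). DDX4 also lost its call when any 1 library was left out (adjusted p 0.0586 to 0.178), DUOX2 was called higher without the second DMSO library (0.0139), and NOX5 without the first DCB library (0.0242).

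The share of CpG-rich promoters varied with the direction and size of the change. Over protein-coding genes, CpG-rich windows were found in 38.0% of genes that rose by more than 2 on the log2 scale, 56.4% of those that rose by less, 75% of those that fell and 56.0% of those not called. The median ratio of observed to expected CpG was 0.64, 0.80, 0.90 and 0.81 in that order. Genes averaging under 5 in DMSO that were not called had CpG-rich windows in 31.4%, against 38.0% of the strong rises, which were mostly in that range too. The share also varied with level, being 33.6% in all tested protein-coding genes averaging under 5 in DMSO and 56.2% in all tested. Of all 1895 genes that fell, 1741 averaged 100 or more in DMSO. Uncalled genes of that level were not set beside them, so the part of level in their 75% was not tested. These are shares of genes, with no test, since genes are not replicates.

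**Figure D5:**
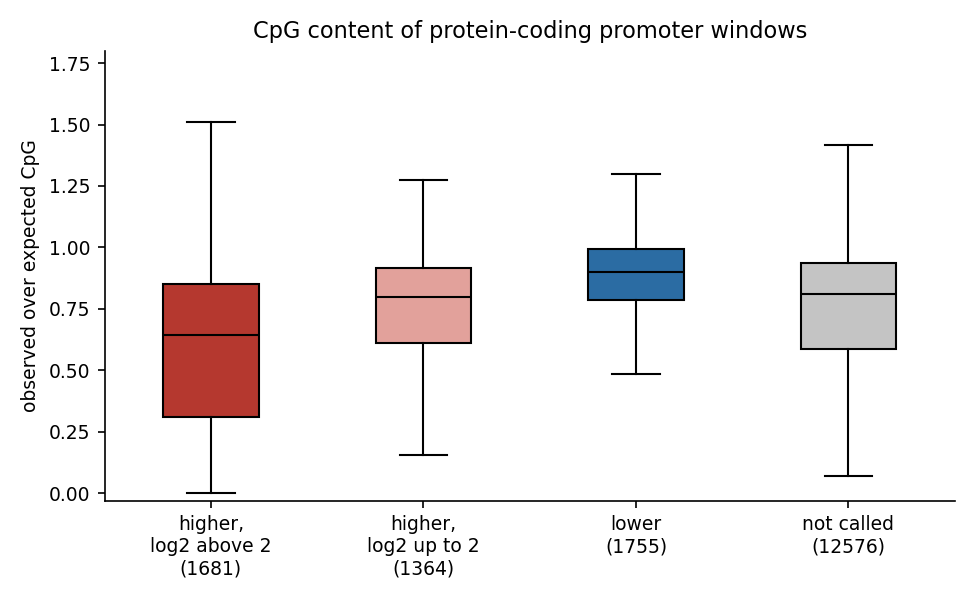
Boxes give the median and quartiles of the observed over expected CpG ratio in promoter windows of protein-coding genes by their call in YCCEL1, with whiskers to the last value within 1.5 times the box height and the number of genes in brackets. The medians are 0.64 for genes higher by more than 2 on the log2 scale, 0.80 for other genes higher, 0.90 for genes lower and 0.81 for genes not called.

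Over the nuclear chromosomes the share of tested genes that rose by more than 2 on the log2 scale was highest on X (12.2%), 20 (10.9%) and 11 (10.8%) and lowest on 18 (3.17%), against 7.99% overall. The tested gene that follows such a gene along the chromosome was itself one in 347 of 2172 cases (16%), against 7.28% after other genes. The longest runs were 11 genes of the H3Y and TAF11-like cluster on chromosome 5 (17490967 to 17955857, coordinates of the deposited table), 10 PRAMEF genes on chromosome 1 and 8 GAGE and PAGE genes on X. Runs of 7 genes included the HOXC cluster on chromosome 12 (53935328 to 53990279). Most of these runs are families of near-identical copies, whose reads cannot always be told apart.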

How the data were processed

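RNA was sequenced from 4 YCCEL1 libraries and 16 libraries of other lines. The authors deposited 1 table of normalized counts (a signal scaled per library, with values that need not be whole), and no count model was used on it. The submitters' processing notes name STAR 2.5.2b, featureCounts 1.5.1 and DESeq2 1.14.1 without their roles. They name GRCh37, but 92.6% of the 60064 genes matched had the start and end that GENCODE v44 gives on GRCh38, so coordinates are given on GRCh38. The labels give poly(A) selection, and the study's methods a 3′ tag kit, which was not settled here.

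From the deposited values, limma 3.58.1 (R 4.3.3) was fitted with a trend on log2(value + 1), with 1 mean for each line and treatment, over genes summing to more than 10. Contrasts were YCCEL1 DCB minus DMSO, and that effect minus the mean of the other 4 lines or minus SNU719. The script was tested on simulated data. Totals of the YCCEL1 libraries, read back from the smallest steps in their values, corresponded to about 7810286 and 9023376 reads with DCB and 10455309 and 9389512 with DMSO. Intervals and SE cover the spread between libraries only.

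Genes were named by rule: those the study discusses; the 12 with the smallest adjusted p in each direction; the 8 risen from 0 and 5 fallen to 0 with the highest values; the 8 in each direction with the highest values among moderate changes (log2 fold change of 0.5 to 2); up to 4 per list and direction; and the 6 that differed most from the other lines in each direction. Genes outside the rule were chosen after their values were seen: H19, IGF2, CREB3L2, SEC24D, HERPUD1, XBP1, HDGFL2, PIGA, ASNS, ATF4, CXCL8, CDKN1A, DNMT1, DCK, DUX4, LEUTX, LYZ, EPCAM, KRT8 and MT-ND6. A few genes picked by these rules are not reported here. The members and lists were chosen with earlier results of these data known. Promoter windows (250 bases before to 50 after the start of the canonical GENCODE v44 transcript) covered 99.9% of protein-coding genes and replaced the RefSeq table for shares, since that table lacked many genes. Alternatives were other pseudocounts, filters, scalings, variance models, fold limits and sets of libraries, a replicate block, and leaving out each YCCEL1 library.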

Additional observations from a re-analysis of the deposited data

Results flagged for a closer look

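Of 31 genes named for the study's own discussion of them or for their place at the ends of the ranking, 20 differed in their DCB effect between YCCEL1 and the mean of the other 4 lines by limma with Benjamini-Hochberg adjustment over all genes tested. The 11 at the ends of the ranking were picked for this difference, so that their values are a description. Values are the YCCEL1 log2 fold change minus that mean, with 2 libraries in each group.

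Among the 20 genes that the study discusses, 9 differed. The difference was 4.74 (adjusted p = 0.00199) for NKD1, 3.63 (adjusted p = 0.00022) for MSX1, 3.56 (adjusted p = 0.000524) for INHBB and 2.95 (adjusted p = 0.00857) for CHFR, a mitotic checkpoint ligase, all of which rose in YCCEL1. It was 2.59 (adjusted p = 0.00796) for CDKN1C and 0.54 (adjusted p = 0.000118) for GPX1, which rose too. RARA, at 0.79 (adjusted p = 0.00607), and RASSF1, at −0.48 (adjusted p = 0.0278), were not called in YCCEL1 itself. THRA, a thyroid hormone receptor, differed by 0.85 (adjusted p = 9.11e-05), with log2 fold changes of −0.19 in YCCEL1 and −1.04 as the mean elsewhere.

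At the positive end stood MT-RNR2 at 1.13, MT-RNR1 at 1.42, DDIT4 at 2.55, IGFBP4 at 6.69 and IL32 at 4.06. At the negative end stood 4 chaperones of the endoplasmic reticulum, HSPA5 at −1.61, PDIA4 at −1.11, CALR at −1.09 and HSP90B1 at −0.99, with the cytosolic chaperone HSP90AA1 at −0.86 and MT-CYB at −0.54.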

How the results depend on the processing

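No named gene that was called changed direction under any alternative run, but the number of calls moved. A pseudocount of 0.5 gave 87 strong falls (log2 fold change below −2) in place of 54, and a pseudocount of 5 gave 805 strong rises in place of 2184 and 17 strong falls. A filter at a sum of 200 gave 1395 and 22. Equal library totals gave 1209 genes lower in place of 1895. A fold limit of 1 on the log2 scale gave 217 strong falls. With the 4 YCCEL1 libraries alone in the fit, which have 2 residual degrees of freedom, 2261 genes were higher, 1121 lower, 1245 strongly higher and 29 strongly lower, and with the 8 EBV+ libraries 32 were strongly lower. Leaving out each YCCEL1 library in turn, where the lone library is assumed to vary like the other groups, gave 2871 to 3125 genes higher, 1276 to 1450 lower, 1901 to 2047 strongly higher and 59 to 82 strongly lower (82 without the first DCB library). It gave 1479 to 1627 positive and 1005 to 1153 negative differences from the other lines (1005 without the second DMSO library), and 834 to 1023 positive and 671 to 766 negative differences from SNU719. The cause of these shifts was not tested. The deviations of same-numbered libraries from their group means correlated at r = 0.05 across genes in YCCEL1, so no strong shared shift was seen. This value cannot tell if same-numbered libraries came from one culture or batch. A fit with the replicate number as a block gave 3499 genes higher, 1636 lower and 752 positive differences from SNU719 in place of 1177. Of the genes named by rule or afterwards, 90 lost their calls with the 4 YCCEL1 libraries alone (CDC6, CYCS, HSP90AA1, PYCARD and TNFRSF10B among those given above), 14 with equal totals and 31 to 41 when 1 library was left out. With 2 libraries per group, changes in genes with few counts are the least certain.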
